A study of Mus musculus with 6 samples.

Results

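The complement and coagulation factors examined here are 34 genes chosen by name and function: complement components and their regulators, clotting factors, the protein C system, the enzymes of fibrinolysis and the liver protease hepsin, with fibrinogen chains and serpins left out. Of these, 33 were found among the 19616 genes with counts, and Cfd was not analysed here. Their expression was compared by RNA-Seq in jejunal intestinal epithelial cells (IEC), enriched from the mucosa with EDTA, of 3 wild-type mice (control; C1, C3 and C3-3) and 3 villin-Cre Hdac1-/-; Hdac2-/- mice (Hdac1/2-deleted; H1, H5 and H9), all aged 3 months, with 1 library per mouse. The villin-Cre transgene drives deletion of both histone deacetylase genes in IEC, from floxed alleles, in mice of mixed C57BL/6J, 129SV and CD1 origin. Other cells that remain in an EDTA fraction keep both genes, and the control mice carry no deletion.

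Complement is a cascade of plasma proteases and adaptors. It starts from antibody complexes (C1), from sugar-binding lectins (the MASP proteases) or by spontaneous turnover of C3 (the alternative pathway), and it ends in a pore built from C5 to C9. Coagulation starts when tissue factor meets factor VII, or on surfaces through factor XII and kininogen, and both routes lead to factor X, prothrombin and fibrin. Hepatocytes secrete most of these proteins, whereas the regulators Cd55 and Cd59a, tissue factor and thrombomodulin sit on the surface of many cells, and IEC are a known local source of C3 and factor B.

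Between 36111035 and 65902344 reads were counted on genes per mouse, so that 3 counts, taken as the floor, equalled 0.0455 to 0.0831 CPM of the library total. This floor covers counting error only. Expression is given as CPM of the TMM-adjusted library size. Hdac1 was at 34.5 to 48.8 CPM in control and 2.53 to 4.81 CPM in Hdac1/2-deleted IEC. Hdac2 was not called (21.4 to 32.8 CPM over the 6 mice), and counts per gene cannot separate reads of a deleted exon from those of the exons around it. The 10 epithelial markers summed to 22946 to 24896 CPM in control and 16285 to 19390 CPM in Hdac1/2-deleted IEC, where Fabp2 alone passed as decreased. Control mouse C3 stood apart, as the only library with Y-linked transcripts (Kdm5d at 15.1 CPM, at most 0.0755 elsewhere) and with Xist at 0.234 CPM, and the calls that changed without it are given beside the results.

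Many of the tested factors were higher in Hdac1/2-deleted IEC, among them hepsin (Hpn), factor X (F10), the C8 gamma chain (C8g), complement C4 (C4b) and complement C5 (Hc), while C1ra, Cd59a, the tissue factor pathway inhibitor Tfpi and factor XIII B (F13b) were lower. In numbers, 28 of the 33 genes had enough counts for edgeR's quasi-likelihood test, 13 were increased, 4 were decreased and 11 were not called. A gene was called at a Benjamini-Hochberg adjusted p of at most 0.05 over the 15618 genes tested and a change of at least 2-fold. Among all tested genes 12.4% were increased and 12.7% decreased, or 1944 and 1989 genes, together 25.2%. With library totals in place of TMM scaling these became 2463 and 1538, the median log2 fold change of all genes moved from -0.0081 to 0.18, and the factors stood at 14 increased and 4 decreased. The median log2 fold change of the 28 factors was 0.96. Of the 13 increased factors, 6 had under 10 counts in every control mouse and entered the test only through the Hdac1/2-deleted mice. F12 (7 counts in C1) and C6 (7 counts in C3-3) would not have entered on the control mice alone either. The decreased F13b and Tfpi, with 5 to 8 and 5 to 15 counts in Hdac1/2-deleted mice, would not have entered on those mice alone. The counts of calls and the median therefore describe the tested factors and not the whole list. The list was also chosen with earlier results of these data known. In bulk IEC, fewer cells of a type and less RNA per cell cannot be told apart.

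The plot of the called factors by mouse sets out the levels behind these counts. Groups did not overlap in 18 of the 28 tested factors, against 53.2% of all tested genes. Without control mouse C3, 12 factors were increased and 4 decreased, with C6 and F13b lost and Plg gained, beside 1911 and 1833 of 16140 tested genes.

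**Figure D1:**
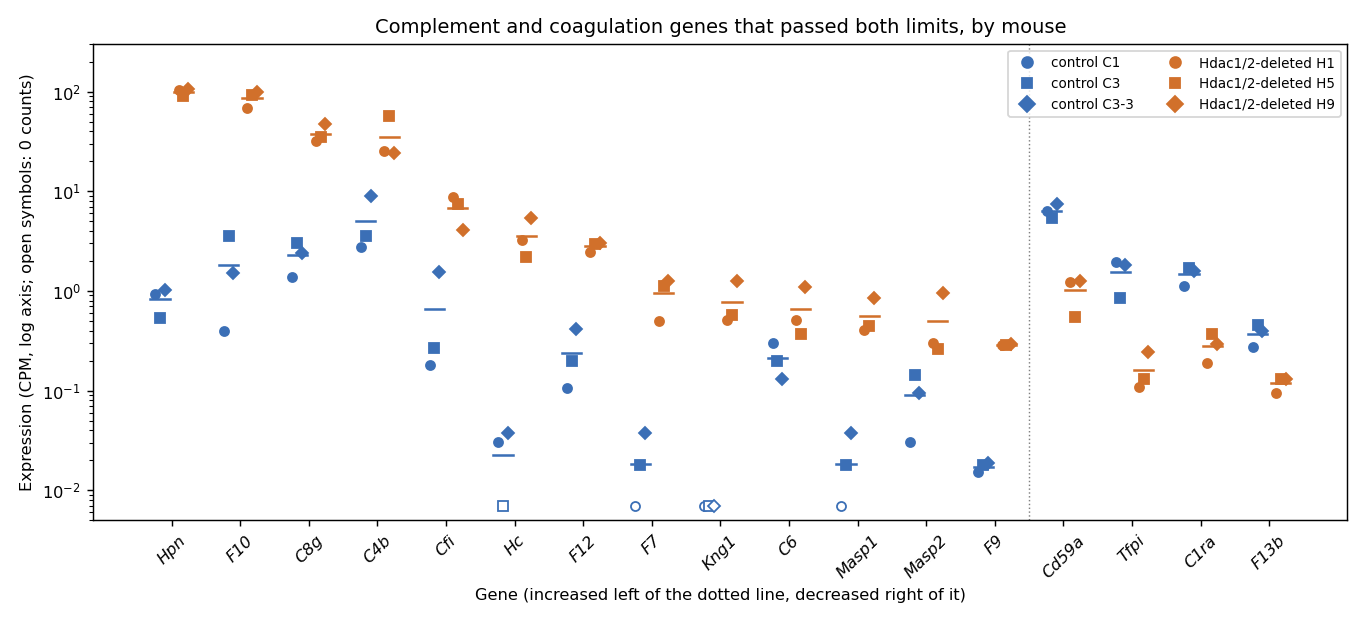
Expression (CPM, log axis) of the 13 increased and 4 decreased factors in each control (blue) and Hdac1/2-deleted (orange) mouse, with a bar at each group mean and open symbols at the bottom for libraries with 0 counts. Hpn and F10 lie at 3.55 CPM or below in every control and at 67.8 CPM or above in every Hdac1/2-deleted mouse, and Kng1 has 0 counts in the 3 controls.

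**Figure D2:**
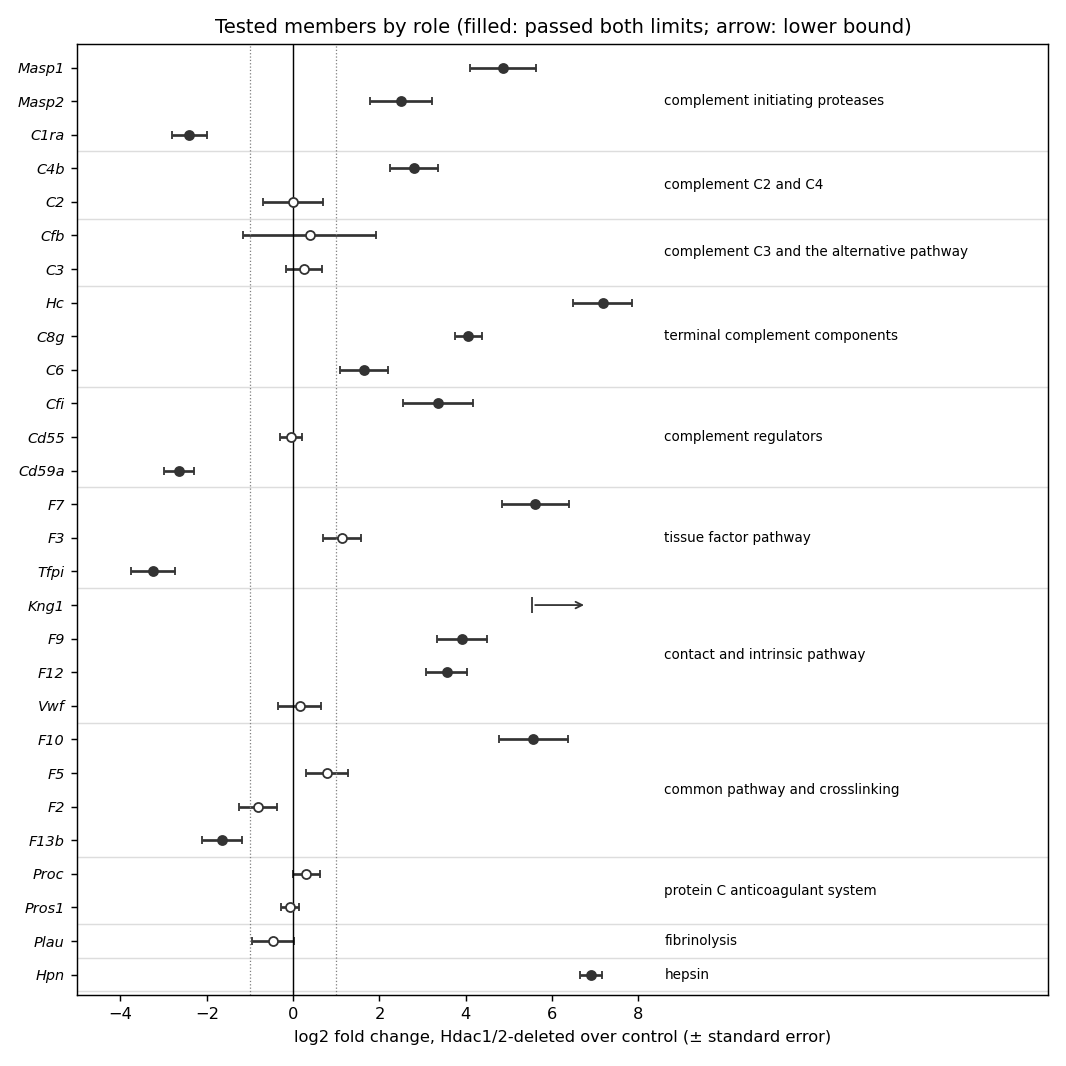
The log2 fold change (Hdac1/2-deleted over control, ± standard error, n = 3 mice per group) of the 28 tested factors, grouped by role, with filled points for those that passed both limits, dotted lines at 2-fold and an arrow from the lower bound for Kng1, which had no count in controls. The 3 terminal complement genes plotted, Hc, C8g and C6, lie to the right of the 2-fold line, whereas both tested protein C genes lie close to 0. C8b, another terminal gene, fell and is not plotted. Hc entered the test only through the Hdac1/2-deleted mice, and C6 would not have entered on the control mice alone.

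The upstream sequences of Hpn, F10, Hc and C8g are shown because these called factors had the largest changes at a mean of at least 1 CPM over the 6 mice. Only factors without overlap between groups and with a RefSeq window were considered. Each is the 250 bases before the gene start in RefSeq (GRCm38.p6), 5' to 3' on the strand of the gene, with capitals for matches on either strand to the letters searched, and only Hc and Hpn held any.
Hpn (chr7:31115327-31115576, minus strand): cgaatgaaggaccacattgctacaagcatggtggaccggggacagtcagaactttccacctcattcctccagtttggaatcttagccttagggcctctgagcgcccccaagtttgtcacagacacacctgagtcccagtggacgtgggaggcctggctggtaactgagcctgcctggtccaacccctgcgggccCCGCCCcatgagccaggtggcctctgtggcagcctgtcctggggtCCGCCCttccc
F10 (chr8:13037058-13037307, plus strand): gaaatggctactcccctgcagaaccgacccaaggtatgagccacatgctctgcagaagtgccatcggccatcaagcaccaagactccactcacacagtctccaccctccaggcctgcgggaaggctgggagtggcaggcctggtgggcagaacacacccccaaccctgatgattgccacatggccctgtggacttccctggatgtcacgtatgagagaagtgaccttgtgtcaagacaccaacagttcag
Hc (chr2:35061413-35061662, minus strand): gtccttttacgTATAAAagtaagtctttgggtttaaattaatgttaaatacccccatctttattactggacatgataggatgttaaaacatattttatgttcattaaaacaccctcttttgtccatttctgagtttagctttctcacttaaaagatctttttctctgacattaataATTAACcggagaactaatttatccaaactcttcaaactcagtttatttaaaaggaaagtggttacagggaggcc
C8g (chr2:25501720-25501969, minus strand): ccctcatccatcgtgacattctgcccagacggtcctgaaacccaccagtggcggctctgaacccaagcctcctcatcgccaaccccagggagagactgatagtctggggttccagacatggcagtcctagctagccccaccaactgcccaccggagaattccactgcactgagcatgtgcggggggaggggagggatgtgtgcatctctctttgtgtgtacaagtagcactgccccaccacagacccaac
The letters searched were GTTAAT (core of the site of HNF1, a liver and gut transcription factor), CAAAGTC (core of the site of HNF4), TATAAA (the core promoter box bound by TBP), TTCNNNGAA (STAT site) and GGGCGG (GC box). The Hpn window held the GC box at 56 and at 11 bases before the start, on the reverse strand. The Hc window held TATAAA at 239 bases and the HNF1 core, as ATTAAC, at 74 bases before the start. Windows were found for 21 of the factors. The HNF1 core lay in 3 of them (Hc, C1ra and F13b), with 6.43% of 32851 RefSeq windows holding it, and the STAT letters lay in 3 (F9, Masp2 and Pros1), against 7.02%. TATAAA lay in Hc and Tfpi (12.4% of all windows), the GC box in 6 factors (32.7%) and the HNF4 core in none of the 21 (3.84%). These are matches of letters and not binding sites, and increased and decreased factors are found among the genes with the HNF1 core.

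Hpn had the largest change among factors above the floor in every control. Hepsin is a membrane serine protease of hepatocytes that can activate factor VII. Hpn (ENSMUSG00000001249, GRCm38 chromosome 7, 31098725 to 31115290) was at 0.936, 0.540 and 1.02 CPM in C1, C3 and C3-3 and at 103, 89.8 and 105 CPM in H1, H5 and H9. The groups were far apart and the 3 Hdac1/2-deleted mice lay close together. The change on the log2 scale was 6.90 ± 0.26 (fitted value ± standard error, SE, adjusted p = 1.55e-06, edgeR), or 119-fold. With any 1 mouse left out it stayed between 6.67 and 7.06.

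In the tissue factor pathway, F7 rose, the inhibitor Tfpi fell and the starter F3 did not pass. F7, the protease that tissue factor binds, had 0, 1 and 2 counts in controls and 37, 43 and 77 counts in Hdac1/2-deleted mice, or 0.499, 1.13 and 1.25 CPM in H1, H5 and H9. Every Hdac1/2-deleted mouse lay above every control, at a ratio of 52.7 between the summed counts after scaling (95% exact counting interval 17.7 to 258, adjusted p = 0.00059, edgeR). F3, which encodes tissue factor itself, was at 1.13, 0.900 and 2.37 CPM in controls and 4.68, 2.32 and 2.68 CPM in Hdac1/2-deleted mice. Control C3-3 and H5 overlapped, and the log2 difference of 1.14 (standard error 0.44) missed the limit at an adjusted p of 0.066 with edgeR. Without C3-3 it was 1.68 (adjusted p = 0.018, edgeR), and DESeq2 gave 1.16 (adjusted p = 0.025). Tfpi, which blocks the complex of tissue factor and factor VIIa, was at 1.96, 0.846 and 1.82 CPM in controls and 0.108, 0.132 and 0.244 CPM in Hdac1/2-deleted mice. The groups did not overlap, and Tfpi fell by 3.24 on the log2 scale (SE 0.51, adjusted p = 0.0012, edgeR).

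Of the 4 tested genes of the contact and intrinsic pathway, 3 rose from levels near the floor, with 12.4% of all tested genes increased. Kng1 and F9, among these 3, entered the test only through the Hdac1/2-deleted mice. The third, F12, with 7 counts in C1, would not have entered on the control mice alone. F12, which starts the contact route, was at 0.106, 0.198 and 0.414 CPM in controls and 2.46, 2.92 and 3.01 CPM in Hdac1/2-deleted mice. Controls spread over a wider relative range than the Hdac1/2-deleted mice and no values overlapped (log2 fold change 3.55 ± 0.48, adjusted p = 0.00055, edgeR). Without C3-3 the log2 fold change of F12 was 4.21. Kng1, the kininogen that carries factor XI and releases bradykinin, had 0 counts in the 3 controls and 38, 22 and 77 counts in Hdac1/2-deleted mice. Taking 3 counts over the control group as the floor, it was at least 46.0-fold higher (adjusted p = 0.00077, edgeR). F9, the antihemophilic protease, had 1 count in each control and 21, 11 and 18 counts in Hdac1/2-deleted mice. After scaling these were 0.283, 0.289 and 0.293 CPM, and the ratio was 16.8 (interval 5.43 to 84.2, adjusted p = 0.00081, edgeR). Vwf, the platelet adhesion protein that carries factor VIII, ranged from 0.162 to 0.546 CPM in controls and from 0.405 to 0.520 CPM in Hdac1/2-deleted mice, which overlapped. F8 and F11 had too few counts to be tested, at 4 to 6 and 3 to 4 counts in controls and 2 to 6 and 0 to 2 counts in Hdac1/2-deleted mice.

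The common pathway moved in both directions. F10, the protease on which both routes converge, lies on chromosome 8 (ENSMUSG00000031444, 13037308 to 13056676). It was at 0.392, 3.55 and 1.52 CPM in C1, C3 and C3-3 and at 67.8, 91.5 and 97.8 CPM in H1, H5 and H9. Controls spread over a wide range in which C3 was highest, yet the lowest Hdac1/2-deleted mouse lay far above it (log2 fold change 5.57 ± 0.79, adjusted p = 0.0029, edgeR). Without C3 the log2 fold change was 6.52. F5, the cofactor of factor X, was at 1.19, 0.918 and 2.63 CPM in controls and 1.46, 2.82 and 3.87 CPM in Hdac1/2-deleted mice, and the groups overlapped (log2 difference 0.78, adjusted p = 0.23, edgeR). F2, which encodes prothrombin, had 28, 14 and 17 counts in controls and 16, 7 and 10 counts in Hdac1/2-deleted mice. These are 0.252 to 0.423 CPM against 0.163 to 0.216 CPM, without overlap, at a log2 difference of -0.81 that did not pass (adjusted p = 0.17, edgeR). F13b, the carrier subunit of the fibrin-crosslinking factor XIII, was at 0.272, 0.450 and 0.395 CPM in controls and 0.0945, 0.132 and 0.130 CPM in Hdac1/2-deleted mice. It fell by 1.65 on the log2 scale (SE 0.46, adjusted p = 0.019, edgeR), a call that was lost without C3, C3-3, H1 or H9, where the adjusted p ranged from 0.058 to 0.082.

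Of the protein C system and fibrinolysis, only Pros1, Proc and Plau were tested with all mice. None of these was called, where 25.2% of all tested genes were. Pros1, the cofactor of activated protein C and an opsonin for dying cells, was among the most abundant factors, at 16.1, 13.1 and 17.3 CPM in controls and 14.2, 18.2 and 11.9 CPM in Hdac1/2-deleted mice. Proc, which encodes protein C, was at 1.42, 2.14 and 1.99 CPM in controls and 1.62, 2.66 and 2.62 CPM in Hdac1/2-deleted mice. Both overlapped between groups, with log2 differences of -0.07 (standard error 0.20) and 0.31 (standard error 0.32). The receptor gene Thbd had 2 to 24 counts in controls and 2 to 10 in Hdac1/2-deleted mice and was not tested. Plasminogen (Plg) had 14, 2 and 40 counts in controls and 7, 1 and 6 counts in Hdac1/2-deleted mice. It was not tested with all 6 mice, and without C3 its log2 fold change was -2.59 (adjusted p = 0.026, edgeR). The activator genes Plat (7 to 20 counts in controls, 3 to 5 in Hdac1/2-deleted mice, not tested) and Plau (10 to 17 against 8 to 9 counts, adjusted p = 0.47, edgeR) were low throughout.

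Vitamin K-dependent carboxylation activates a subset of these proteins. Of 7 tested genes for such clotting proteins, F7, F9 and F10 were increased and none was decreased, against 12.4% and 12.7% of all tested genes, and F7 and F9 entered the test only through the Hdac1/2-deleted mice. Proz, a vitamin K-dependent cofactor of a factor X inhibitor that lies next to F10, was at 12.7, 40.8 and 28.3 CPM in controls and 41.0, 34.7 and 40.6 CPM in Hdac1/2-deleted mice, which overlapped (adjusted p = 0.32, edgeR). The carboxylase gene Ggcx was at 8.80 to 9.97 CPM in controls and at most 10.4 CPM in Hdac1/2-deleted mice, and the vitamin K reductase gene Vkorc1 at 16.4 to 21.1 and 14.5 to 20.1 CPM, and neither was called. Nqo1, a quinone reductase, fell by 1.94 (log2), and Tpst2, a tyrosine sulfotransferase, rose by 1.59, out of 10 tested genes of the vitamin K cycle and clotting factor secretion.

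The proteases that start complement moved in opposite directions. Masp1 and Masp2, of the lectin pathway, rose, and C1ra, of the classical pathway, fell. Masp1 and Masp2 had under 10 counts in every control and entered the test only through the Hdac1/2-deleted mice. Masp1 had 0, 1 and 2 counts in controls and 30, 17 and 52 counts in Hdac1/2-deleted mice, a ratio of 33.3 (interval 11.1 to 164, adjusted p = 0.0012, edgeR). Masp2 was at 0.0302, 0.144 and 0.0941 CPM in controls and 0.297, 0.263 and 0.943 CPM in Hdac1/2-deleted mice. No value overlapped, but H9 carried much of the difference. Its log2 fold change of 2.50 ± 0.72 (adjusted p = 0.021, edgeR) became 1.66 without H9 (adjusted p = 0.11), and the call was also lost without C1 (0.057) or C3-3 (0.056). C1ra was at 1.13, 1.71 and 1.60 CPM in controls and 0.189, 0.368 and 0.293 CPM in Hdac1/2-deleted mice. The 2 groups were well apart, and C1ra fell by 2.40 on the log2 scale (SE 0.40, adjusted p = 0.0016, edgeR). The near-identical C1rb had 14 counts in controls and 3 in Hdac1/2-deleted mice, so reads shared by the pair may have been split between them.

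C4b rose, whereas C2, C3 and Cfb did not pass. C4b, the thioester protein that C1s and MASP2 cleave, was at 2.78, 3.53 and 8.90 CPM in controls and 25.1, 56.2 and 24.1 CPM in Hdac1/2-deleted mice. H5 was highest and C3-3 was the highest control, still below all Hdac1/2-deleted mice (log2 fold change 2.80 ± 0.56, adjusted p = 0.0074, edgeR). Without C3-3 it was 3.49. The neighbouring copy C4a rose too, from 0.332, 0.486 and 0.715 CPM to 2.60, 2.92 and 2.78 CPM (log2 fold change 2.44, adjusted p = 0.00084, edgeR), and the counts of the copies are uncertain where reads could match both. C3, the central component, was at 6.54, 10.3 and 5.34 CPM in controls and 6.25, 14.7 and 5.56 CPM in Hdac1/2-deleted mice, which overlapped (adjusted p = 0.65, edgeR).

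Factor B (Cfb), the protease of the alternative pathway, was nearly absent from 1 control mouse. It was at 28.3, 0.0720 and 65.4 CPM in C1, C3 and C3-3, or 1872, 4 and 3474 counts, and at 33.3, 44.2 and 44.4 CPM in H1, H5 and H9. C3 lay far below the other 5 mice, which overlapped between groups. The log2 difference of 0.38 had a standard error of 1.54, and without C3 it was -0.20. Of 6861 genes at 10 CPM or more in the other 5 libraries, 3 were more than 20 times below the lowest of these in C3 (Cfb, Rps13-ps1 and Xist), and no gene met the same limits in any of the other 5 libraries.

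C2, which lies beside Cfb on chromosome 17 and does the same task in the classical and lectin pathways, was also lowest in C3. It was at 3.46, 0.972 and 9.33 CPM in controls and 3.70, 5.24 and 4.83 CPM in Hdac1/2-deleted mice (log2 difference -0.0002, standard error 0.69). The flanking genes were not low in C3, with Nelfe at 30.4 CPM in C3 and 26.6 CPM in C1 and Skiv2l at 63.8, 75.6 and 97.1 CPM in C1, C3 and C3-3. The lectin gene Mbl2, on another chromosome, was at 33.9, 5.81 and 76.4 CPM in controls and 124, 102 and 163 CPM in Hdac1/2-deleted mice. Its log2 difference of 1.75 did not pass with all mice (adjusted p = 0.18, edgeR), and without C3 it was 1.24 and was called (adjusted p = 0.040). Cfb, C2 and Mbl2 thus had the same order of control mice, C3 lowest and C3-3 highest. The part of sex or of any other trait of C3 in these values was not tested.

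**Figure D3:**
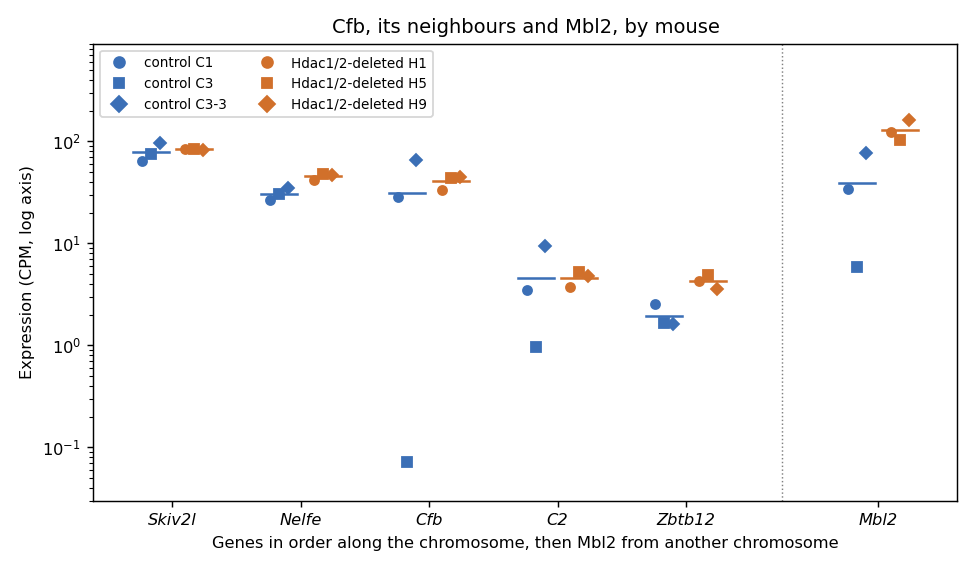
Expression (CPM, log axis) of Cfb, its neighbours on chromosome 17 and Mbl2 in each control (blue) and Hdac1/2-deleted (orange) mouse, with a bar at each group mean. Control C3 (blue square) lies at 0.0720 CPM for Cfb and is the lowest mouse for C2 and Mbl2, but not for Skiv2l or Nelfe.

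All 3 terminal complement genes among the factors rose, with 12.4% of all tested genes increased. Of the 3, Hc entered the test only through the Hdac1/2-deleted mice. C6, with 7 counts in C3-3, would not have entered on the control mice alone. Hc, which encodes C5 and lies on chromosome 2 (ENSMUSG00000026874, 34983331 to 35061438), had 2, 0 and 2 counts in controls and 238, 83 and 329 counts in Hdac1/2-deleted mice. The latter are 3.21, 2.18 and 5.35 CPM, and the log2 fold change was 7.17 ± 0.67 (adjusted p = 8.04e-05, edgeR), or 5.99 with a prior count of 2. C8g, the lipocalin-like chain of C8, was at 1.39, 3.04 and 2.43 CPM in controls and 32.0, 34.6 and 47.1 CPM in Hdac1/2-deleted mice. The lowest Hdac1/2-deleted mouse lay far above the highest control (log2 fold change 4.06 ± 0.31, adjusted p = 3.56e-05, edgeR). The partner chain C8b went the other way, from 0.408, 1.04 and 0.621 CPM to 0.0270, 0 and 0.0325 CPM (log2 fold change -4.81, adjusted p = 0.00084, edgeR). C6, which binds C5b, was at 0.302, 0.198 and 0.132 CPM in controls and 0.513, 0.368 and 1.11 CPM in Hdac1/2-deleted mice. Its call (log2 fold change 1.64 ± 0.55, adjusted p = 0.039, edgeR) was lost without C3, C3-3, H1 or H9, with adjusted p from 0.061 to 0.18. C9, which closes the pore, had 0 counts in controls and 14 in Hdac1/2-deleted mice and was not tested.

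The regulators of complement also parted. Cfi, the protease that cleaves C3b and C4b, was at 0.181, 0.270 and 1.54 CPM in controls and 8.69, 7.53 and 4.13 CPM in Hdac1/2-deleted mice. C3-3 was the highest control and H9 the lowest Hdac1/2-deleted mouse, with a clear gap between them (log2 fold change 3.36 ± 0.81, adjusted p = 0.014, edgeR). Without C3-3 it was 4.92. Cd59a, the membrane protein that stops C9 from joining the pore, was at 6.26, 5.42 and 7.52 CPM in controls and 1.21, 0.553 and 1.27 CPM in Hdac1/2-deleted mice, and fell by 2.64 on the log2 scale (SE 0.35, adjusted p = 0.0005, edgeR). Its copy Cd59b fell as well, by 2.93. Cd55, which splits the C3 convertases, was at 23.6, 32.8 and 21.6 CPM in controls and 30.9, 16.5 and 27.5 CPM in Hdac1/2-deleted mice. Its log2 difference of -0.06 (standard error 0.25) lay within the spread of either group.

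Levels per kb of exon allow the factors to be ranked against each other. In controls the highest mean levels were those of Cfb (11.1 CPM per kb), Cd55 (5.36), Pros1 (3.80) and Cd59a (3.54). In Hdac1/2-deleted IEC the order began with F10 (31.4 CPM per kb), C8g (25.4), Hpn (24.2) and Cfb (14.4). F10 moved from rank 10 to 1, Hpn from 16 to 3 and Hc from 31 to 14 among the 33 genes. F10 lay above C8g in each of the 3 Hdac1/2-deleted mice, at 24.8, 33.5 and 35.8 against 21.4, 23.2 and 31.6 CPM per kb. Hpn, at 25.1, 21.9 and 25.7, lay above both in H1 and below both in H5 and H9.

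Individual mice differed within the increased set. H9 was the highest Hdac1/2-deleted mouse for 11 of the 13 increased factors, and H1 was the lowest for 7. Among controls, C1 was lowest for 9 and C3-3 highest for 8 of the 12 without a tie. The factors share each library, so these orders are 1 observation per mouse and not 13.

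Among 71 other genes of these systems, 59 had counts, 47 were tested, 11 were increased and 5 decreased, against 12.4% and 12.7% of all tested genes. Of the 11, 3 (Adamts13, Kng2 and Gp9) had under 10 counts in every control mouse and entered only through the Hdac1/2-deleted mice. Some of the others would not have entered on the control mice alone. The decreased C8b and Cd59b would not have entered on the Hdac1/2-deleted mice alone. C1rl, a protease related to C1r, rose from 0.408, 0.612 and 0.715 CPM to 6.03, 7.58 and 6.21 CPM (log2 fold change 3.51). The von Willebrand factor protease Adamts13 had 2, 2 and 1 counts in controls and rose by 4.70 on the log2 scale. The C4b-binding protein gene C4bp rose by 1.11, and Kng2 was at least 13.4-fold higher. The call of C4bp was lost without C3 (adjusted p = 0.063, edgeR) or H1 (0.066). The decreased genes, besides C8b, Cd59b and Nqo1, were Habp2, a factor VII-activating protease (fell by 1.19), and the plasminogen receptor Plgrkt (fell by 2.20). The call of Habp2 was lost without C1, H1 or H9 (adjusted p = 0.054 to 0.077, edgeR).

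Markers of other cells moved beside some of these genes. C1qa and C1qb, made by macrophages, rose by 1.18 and 1.15 (adjusted p = 0.027 and 0.043, edgeR), and the third chain, C1qc, did not pass (0.054). The call of C1qa was lost without C3, C3-3, H5 or H9 and that of C1qb without any mouse but H1, down to log2 fold changes of 0.75 (adjusted p = 0.11, edgeR) and 0.67 (adjusted p = 0.18) without H9. Of 8 tested macrophage and dendritic cell markers 2 rose (Csf1r and Mrc1) and 1 fell (Cd14), and the 9 with counts summed to 67.2 to 78.8 CPM in controls and 38.0 to 53.7 CPM in Hdac1/2-deleted IEC. Without Cd14, the other 8 summed to 10.9 to 18.8 and 24.2 to 42.7 CPM. Gp9, a platelet glycoprotein, rose by 3.24 and Gp6, another, fell by 3.42 on the log2 scale. The 6 platelet markers with counts, Gp9 among them, summed to 16.9 to 34.6 and 29.8 to 50.2 CPM, or 1.58 to 2.21 and 1.08 to 2.52 CPM without Gp1bb, with Pf4 at 0.0975 CPM or less in every mouse.

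Some smooth muscle and fibroblast markers fell beside C1ra and Tfpi. Fibroblasts and smooth muscle are known sources of C1r and TFPI. Their 10 markers summed to 65.7, 45.3 and 6.43 CPM in C1, C3 and C3-3 and to 12.8, 22.0 and 17.8 CPM in H1, H5 and H9, with 1 of 8 tested increased (Pdgfrb) and 4 decreased (Acta2, Des, Myh11 and Dcn). Acta2 was at 12.5, 11.1 and 0.602 CPM in the controls, where C1ra was at 1.13, 1.71 and 1.60 CPM and Tfpi at 1.96, 0.846 and 1.82 CPM. In the same order, Des was at 13.3, 14.1 and 0.658 CPM and Myh11 at 25.4, 12.6 and 0.451 CPM. Dcn was at 3.94, 1.82 and 1.64 CPM in these controls and at 0.972, 0.658 and 1.01 CPM in H1, H5 and H9. The 10 endothelial markers, of another source of TFPI, summed to 2.52 to 6.44 and 8.56 to 11.02 CPM, or 2.18 to 5.84 and 2.12 to 4.11 CPM without Egfl7, with Egfl7 and Tie1 increased, Esam decreased and Cdh5 at most 0.528 CPM.

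Hepatocyte markers moved in both directions. The 9 with counts summed to 11.7 to 18.5 CPM in controls and 19.8 to 63.7 CPM in Hdac1/2-deleted IEC. Ttr was the highest of the 9 in each Hdac1/2-deleted mouse, at 12.8, 13.3 and 52.7 CPM in H1, H5 and H9. It was at most 1.84 CPM in controls, so the higher sums do not show a rise of the markers as a set. Of 8 tested, Ttr, Tat and Cyp1a2 were increased and Alb, Hpd and Cyp2e1 decreased, with Alb at 0.810 to 0.997 CPM in controls and 0.216 to 0.316 CPM in Hdac1/2-deleted IEC and Cyp2e1 at 0 counts in the latter. T cell markers summed to 126 to 481 and 64.4 to 155 CPM (1 of 10 tested increased, 2 decreased), B and plasma cell markers to 30.5 to 309 and 98.3 to 212 CPM (1 of 6 increased), and mast cell markers to 17.6 to 37.3 and 20.04 to 88.7 CPM (1 of 6 decreased). Erythrocyte markers (3.12 to 75.1 and 13.3 to 22.6 CPM) and adipocyte markers (115 to 145 and 70.8 to 94.8 CPM) held no called gene, and of the neutrophil markers only Csf3r had counts, at 0.293 CPM or less. The part of other cells in the changes of the factors was not tested beyond these values.

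Several factors lie side by side in the genome, so their neighbours could be compared. F7 and F10 are 1498 bases apart on chromosome 8 and both rose, while Proz on the far side of F10 (log2 difference 0.51), Mcf2l (-0.12), Pcid2 (0.25) and Cul4a (0.33) were not called. The RNA gene Gm15351, which lies within Mcf2l on the other strand, rose by 4.20. Around C4b on chromosome 17, C4a, Cyp21a1 (a steroid hydroxylase between the C4 copies), Dxo and Zbtb12 also rose, and Stk19, Skiv2l and Nelfe were not called. On chromosome 16, Kng2, Kng1, Fetub and Masp1 rose, and Eif4a2 (-0.38), Rfc4 (-0.42) and St6gal1 (1.54, adjusted p = 0.073, edgeR), which lie between Kng1 and Masp1, were not called.

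**Figure D4:**
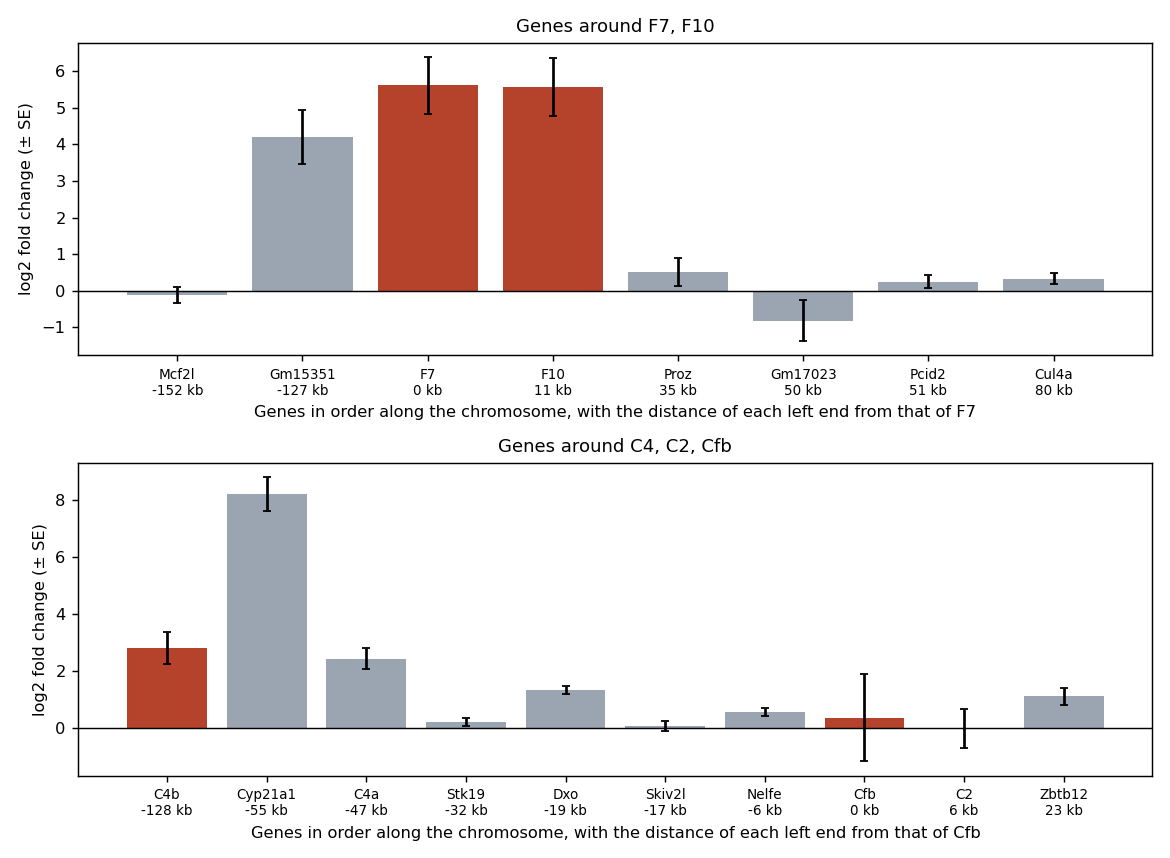
The log2 fold change (Hdac1/2-deleted over control, ± standard error, n = 3 mice per group) of tested genes in chromosome order around F7 and F10 (top) and C4b, C2 and Cfb (bottom), with red bars for the factors examined, grey bars for their neighbours and distances in kb between left ends. F7 and F10 stand at 5.61 and 5.57 beside Proz at 0.51, and Cfb has the widest error bar, 1.54.

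Some factors overlap genes on the other strand, and the strand setting of the counting is not given in the sources used here, although the library kit keeps strand. C8g overlaps Fbxw5, which was at 33.7 to 58.4 CPM in controls and 47.1 to 55.8 CPM in Hdac1/2-deleted IEC and did not pass (log2 difference 0.13). Masp1 overlaps Rtp4, which fell by 0.68, and Masp2 overlaps Tardbp at 55.6 to 98.3 CPM over the 6 mice (log2 difference 0.25). Cfb and C2 share sequence with the overlapping gene model Gm20547, so their counts are uncertain where shared reads were discarded.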

How the data were processed

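RNA was measured in 6 libraries, 1 per mouse, from poly(A)-selected total RNA. Reads were aligned by the authors with STAR (version 2.4.0f1 in the submitters' processing notes), and the authors deposited raw counts of reads per gene. The build is GRCm38 in the paper and mm9 in the submitters' processing notes. The counting program, its annotation and its strand setting are not given in the sources used here. The deposited table also holds a score per sample, the counts multiplied by 1 factor and rounded, and the authors' own fold changes and p-values, which were not used. No gene in it has fewer than 10 counts over the 6 mice.

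Counts were scaled with TMM (factors 0.892 to 1.14) and filtered with filterByExpr, and 15618 genes were fitted with the robust quasi-likelihood test of edgeR 4.0.16 in R 4.3.3, without covariates and with a prior count of 0.125. The Benjamini-Hochberg adjustment covered these genes. The standard error is the log2 fold change divided by the square root of F. DESeq2 1.42.0, other scalings, filters, prior counts and limits, and leaving out each mouse in turn, were tried as alternatives. For a gene with 1 to 3 counts in a group, the ratio is given with an exact 95% interval, which covers counting error only. P-values test the difference between groups against the variation between 3 mice per group, with a variance that edgeR moderates over all fitted genes. The steps were tested on simulated data. Positions and exon lengths came from GENCODE M21 (GRCm38) by gene identifier, and upstream windows from RefSeq.

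All 34 factors are accounted for, with values by mouse for called genes and for tested genes at a mean of at least 1 CPM, and counts or ranges for the rest. Promoters were printed for at most 4 called genes. The factors and all lists were chosen with earlier results of these data known. Some of the called genes among the other genes of these systems are not reported here.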

Additional observations from a re-analysis of the deposited data

How the results depend on the processing

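No paired analysis was possible because the mouse names do not pair the groups. With at least 10 counts required in every sample, 5 factors were increased, 2 decreased and 7 past the adjusted p limit, and 3 other genes of these systems were decreased, since fewer genes were tested. The median log2 fold change of the tested factors, 0.96, was 0.31 without a filter on low counts and 0.33 with DESeq2, and ranged from 0.32 to 1.41 with 1 mouse left out, so it follows which factors enter the test. The fitted log2 values of F7 and Masp1 were 5.01 and 4.26 without C1 and 6.53 and 5.78 without C3-3. No called factor changed direction under any alternative. Uncalled values did. The log2 difference of C2 (-0.0002) was 0.012 with DESeq2 size factors, 0.18 with library totals, 0.0085 without a filter, 0.015 with at least 10 counts and with DESeq2, 6.7e-05 with a prior count of 2 and -0.47 to 1.05 with a mouse left out. With library totals Cd55 was at 0.15 and Pros1 at 0.11. With a mouse left out, Cd55 ranged from -0.24 to 0.17, Pros1 from -0.24 to 0.066, C3 from -0.32 to 0.58, Cfb from -0.20 to 1.52 and Vwf from -0.22 to 0.40. With library totals F3 passed (1.36, adjusted p = 0.040, edgeR). Genes below a few counts, such as F7, F9, Masp1 and Kng1 in controls, have depth as their limit. The cause of the other changes was not tested.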
